A study of Neurospora crassa with 22 samples.

Results

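Total RNA (input) of Neurospora crassa hyphae exposed to Nikkomycin Z was compared between the GUL-1-GFP strain and the wild-type. The comparison rested on 5 of the 22 libraries of the series: 2 GUL-1-GFP inputs (replicates 2 and 3) and 3 wild-type inputs (replicates 1, 2 and 3), chosen by their strain, fraction and agent labels. The GUL-1-GFP strain carries gul-1 fused to sgfp behind the ccg-1 promoter at the his-3 locus, its native gul-1 being replaced by the hph marker, while the other strain is labelled wildtype with no further genotype. Both were grown in Vogel's minimal medium with sucrose (Vs), and the hyphae of all 5 libraries had received Nikkomycin Z at 1e-05 M for the last 1 h. The series also holds GFP pull-downs of both strains, and inputs and pull-downs of both strains in Vs without the drug. The tagged protein was thus made from a foreign promoter in all GUL-1-GFP libraries, and the effect of the tag, the promoter, the deletion and other strain differences cannot be told apart. The labels number the libraries as replicates without stating separate cultures. The adjusted p-values below thus rest on a spread between libraries, estimated over all 22 libraries of the series and not over these 5 alone.

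GUL-1 is an RNA-binding protein related to yeast Ssd1, which binds mRNAs of cell wall proteins and holds them for later translation or transport. In N. crassa it acts with the COT-1 kinase in polar growth and with the MAK-1 mitogen-activated protein kinase cascade, which guards the cell wall. Nikkomycin Z inhibits chitin synthases and thereby weakens the wall. The inputs of the tagged strain serve as the baseline of its pull-downs, so a difference between inputs of the strains bears on how such baselines can be read.

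The inputs of the strains differed in depth. Total counts were 12786879 and 6682673 in the GUL-1-GFP inputs, against 22013253 to 28010852 in the wild-type inputs. Protein-coding genes received 41941 and 44869 counts in the GUL-1-GFP inputs, against 333220, 430811 and 255490 in the wild-type inputs, a mean that was 7.83 times as large in the wild-type, which joins the gaps in total counts and in the protein-coding share. Counts above 0 were found for 2492 and 2548 protein-coding genes in GUL-1-GFP, against 6306, 6584 and 5949 in the wild-type. All wild-type libraries lay above both GUL-1-GFP libraries in both measures. Protein-coding genes took 0.328 and 0.671% of all counts in GUL-1-GFP and 1.16 to 1.54% in the wild-type, rRNA genes took 92.7 and 93.2% against 94.9 to 95.8%, and mitochondrial features took 7.01 and 6.16% against 3.06 to 3.57%. An exact permutation test (two-sided) gave p = 0.2 for each of these measures, the smallest value that 2 against 3 libraries allow. Because of the gap in depth, levels are given below as counts per 10000 protein-coding counts of the library, and 3 counts, taken as the floor, corresponded to 0.715 and 0.669 per 10000 in the GUL-1-GFP inputs and to 0.0696 to 0.117 in the wild-type inputs. These floors cover counting error only.

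**Figure D1:**
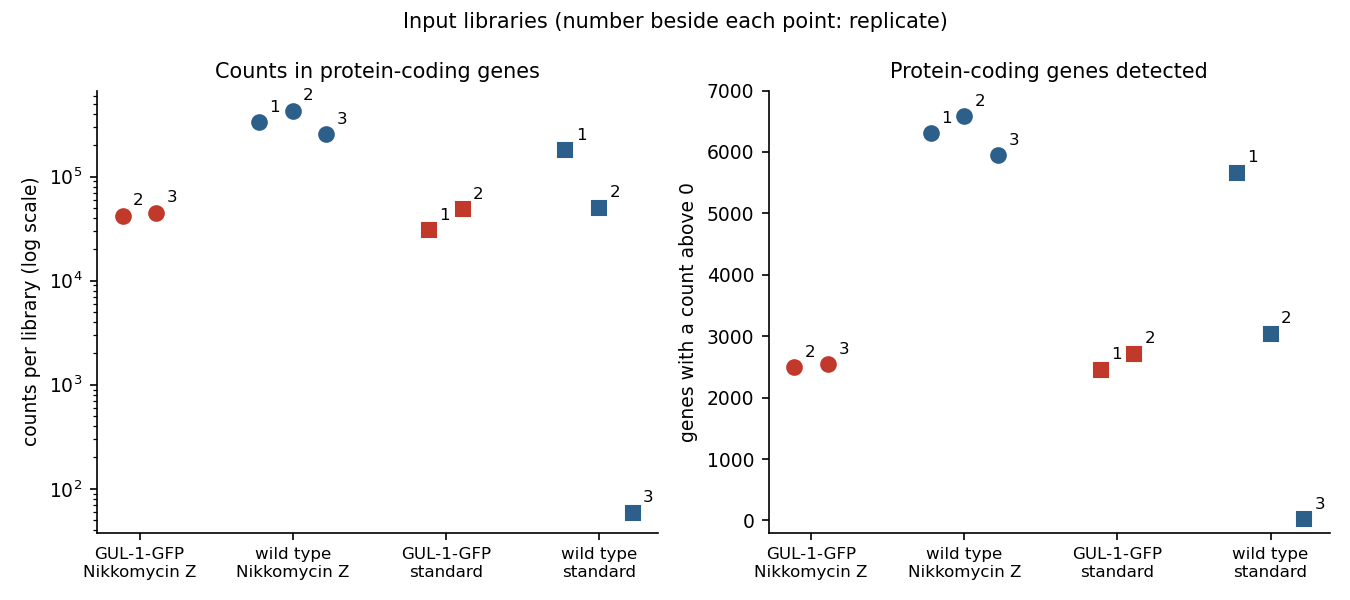
Counts in protein-coding genes (left, log scale) and protein-coding genes with a count above 0 (right) in each input library; circles are libraries with Nikkomycin Z, squares those in standard medium, red GUL-1-GFP and blue wild-type. Both GUL-1-GFP inputs with Nikkomycin Z lie below the 3 wild-type inputs with the drug, and wild-type replicate 2 of the standard medium lies beside them.

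A single wild-type library had a similar depth. Wild-type input replicate 2 of the standard medium held 50469 protein-coding counts on 3040 genes, close to the GUL-1-GFP inputs with the drug, although it was not treated. Wild-type replicate 1 of the same medium held 178300 counts on 5660 genes, and replicate 3 only 59 counts on 20 genes. Levels in the shallow wild-type replicate 2 are therefore given beside the main results. The part of depth in the strain difference was not tested.

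Hyphal and conidial markers were examined before the results. Hyphal markers were present in both strains: hex-1, which encodes the Woronin body protein, had 5.48 and 3.79 per 10000 in GUL-1-GFP and 5.67, 4.60 and 5.64 in the wild-type, and actin (act) had 4.29 and 2.67 against 4.35, 1.93 and 3.87. Chitin synthase 1 (chs-1) had counts of 0 and 15 against 87, 89 and 44. The conidial list was low or absent in GUL-1-GFP. The hydrophobin gene eas had 0 and 0 counts against 280, 196 and 148, con-8 had 12 and 0 against 461, 407 and 304, and fl, a regulator of conidiation, had 7 and 0 against 167, 170 and 116. con-8 and fl were lower (adjusted p = 0.0443 and 0.0495), and eas did not pass (adjusted p = 0.0524). With protein-coding totals as library sizes neither con-8 nor fl passed (adjusted p = 0.131 and 0.144). Nor did they pass when any 1 wild-type input was left out (adjusted p of 0.0597 to 0.0731 for con-8 and 0.0692 to 0.0812 for fl). con-13 was at 0 in all 5 libraries, con-6 at 0 in 4 of them, and con-10 at 0 in both GUL-1-GFP inputs with 11, 7 and 3 counts in the wild-type. The 6 conidial genes summed to 4.53 and 0 per 10000 in GUL-1-GFP and to 18.1 to 27.6 in the wild-type, and to 1.39 in the shallow wild-type library. Fewer cells of a type and less RNA per cell cannot be told apart in such samples.

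The gene of the construct was checked next. gul-1 (NCU01197) had 436 and 536 counts in the GUL-1-GFP inputs, against 39, 47 and 14 in the wild-type inputs. Per 10000 these were 104 and 119 against 1.17, 1.09 and 0.548, so the groups stood far apart. The log2 fold change of GUL-1-GFP over wild-type (log2FC) was 6.02 ± 0.85 (SE), a 64.7-fold higher level, with an adjusted p of 0.000391 in the quasi-likelihood test of edgeR with adjustment by Benjamini and Hochberg, which gave all adjusted p-values below. gul-1 was also higher in the tagged strain without the drug, with 102 and 594 counts against 32, 40 and 0 in the wild-type (log2FC 4.08 ± 0.84, adjusted p = 0.0215). In the shallow wild-type library it reached 7.93 per 10000, above every wild-type input with the drug and well under both GUL-1-GFP inputs with the drug. Counts per gene do not by themselves tell a fusion from a native transcript, but by the genotype given above the tagged strain lacks the native gul-1.

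The other loci of the construct moved in opposite directions. his-3 (NCU03139), a histidine biosynthesis gene at which the fusion was inserted, had 40 and 51 counts in GUL-1-GFP against 24, 37 and 22 in the wild-type, which is 9.54 and 11.4 against 0.72 to 0.861 per 10000 (log2FC 2.81 ± 0.84, adjusted p = 0.0232). The shallow wild-type library had 10.1 per 10000, as much as the tagged strain. The call was lost with total counts as library sizes (adjusted p = 0.11) and without any one of the 5 inputs (0.052 to 0.116). ccg-1 (NCU03753), the glucose-repressible gene whose promoter drives the fusion, had 0 and 0 counts against 219, 253 and 145. Against the floor of 3 counts per library this was at least 8.73-fold lower per 10000 (adjusted p = 0.016), and without GUL-1-GFP replicate 2 or 3 the adjusted p was 0.112 or 0.12. In standard medium ccg-1 had 45 and 0 counts in GUL-1-GFP and 344, 5 and 0 in the wild-type, so that libraries of both strains were at or near 0.

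**Figure D2:**
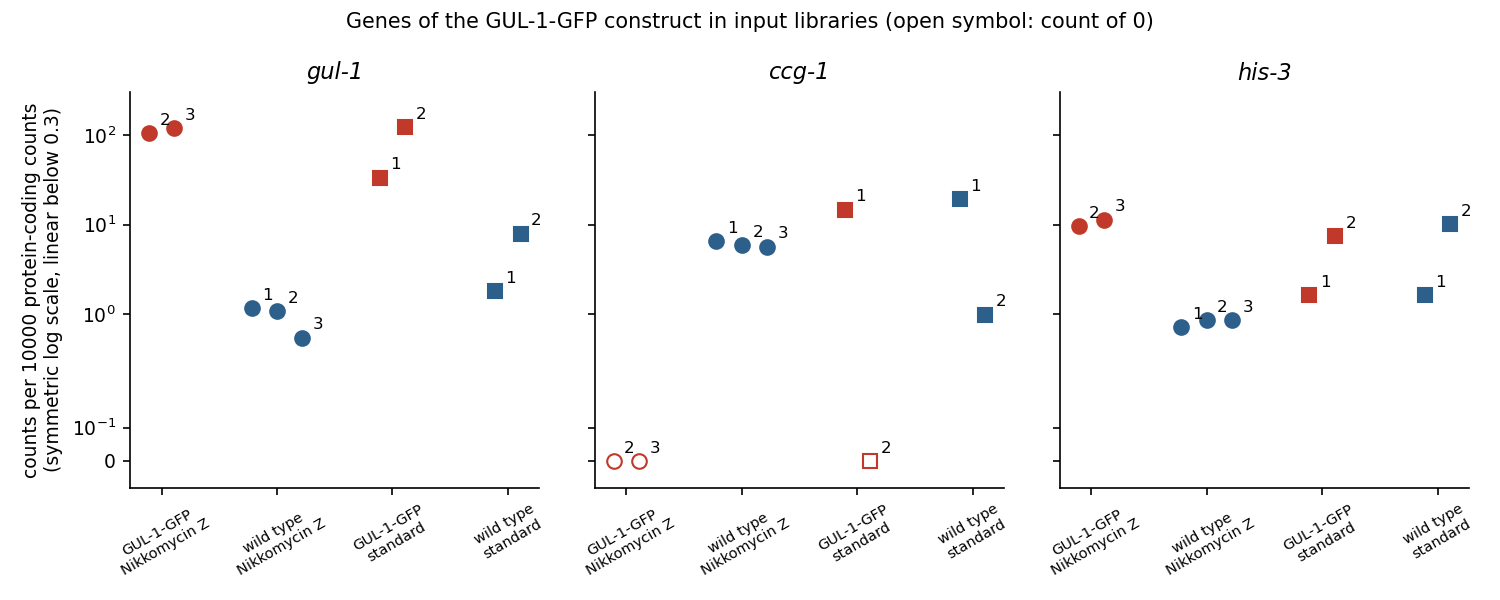
Counts per 10000 protein-coding counts (symmetric log scale) of gul-1, ccg-1 and his-3 in each input library, with the replicate number beside each point; wild-type replicate 3 of the standard medium, with 59 protein-coding counts, is not drawn. gul-1 is at 104 and 119 in the GUL-1-GFP inputs with Nikkomycin Z and at 0.548 to 1.17 in the wild-type, whereas his-3 in shallow wild-type replicate 2 (10.1) lies among the GUL-1-GFP values.

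Over all features, far more transcripts were called lower than higher in the tagged strain. Of 7114 features tested, 88 were higher (1.24%) and 1337 lower (18.8%) at an adjusted p under 0.05, together 20.0%. At an unadjusted p under 0.05 the counts were 217 and 2372. The median log2FC was -3.20, since 3795 features had 0 counts in both GUL-1-GFP inputs. With groups at 0 set to their bound on the scale of the test (TMM, a trimmed mean of log ratios), the median was at 0. Log2 levels correlated with r of 0.81 between the GUL-1-GFP inputs, 0.93 to 0.95 between wild-type inputs and 0.64 to 0.70 between strains, across 7114 features that are not independent replicates.

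Most losses were zeros. Of the 1337 lower transcripts, 1128 (84.4%) had 0 counts in both GUL-1-GFP inputs, where the fitted log2FC is no bound. Per 10000 protein-coding counts, the wild-type mean was at or under the GUL-1-GFP floor for 352 of these, which gives no fold, and above it for 776. It was over 4 times the floor for 78. Bounds on the TMM scale were larger by a median factor of 1.83, and there 1096 lay above the floor and 254 over 4 times above it. Bounds of lower transcripts are given per 10000 below. The shallow wild-type library also had 0 counts for 798 of the 1337 (59.7%), beside 57.2% of all features tested, while the deeper wild-type replicate 1 of the standard medium had 0 for 77. Of the 1128 transcripts at 0, 1069 had counts in all 3 GUL-1-GFP pull-downs with Nikkomycin Z. The extreme case, named after its values were seen, was NCU03775, a hypothetical protein gene with 0 and 0 counts in GUL-1-GFP against 4611, 3501 and 2403 in the wild-type, at least 151-fold lower (adjusted p = 0.00645). NCU03775 was at 0 in shallow wild-type replicate 2 too, against 1998 counts in wild-type replicate 1 of the standard medium. A gap between 0 and a high count thus also occurred within the wild-type, and the bound covers counting error only. Both untreated GUL-1-GFP inputs were at 0 for this gene, while the GUL-1-GFP pull-downs with the drug had 1964, 1042 and 3050 counts.

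The split of calls depended on the scale. With TMM, 6.18% of the calls were higher. With library sizes set to the protein-coding totals, 272 of 6459 features were higher and 519 lower, 34.4% of the calls being higher, and with total counts 21 were higher and 1404 lower (1.47%). The protein-coding totals shifted the log2FC of features with counts in both strains by a median of 0.86, and total counts shifted it by -0.63. All 519 of the lower calls on the protein-coding scale were among the 1337, and 84 of the 88 higher transcripts were also called higher on it. With DESeq2 on all 22 libraries 55 of 8762 features were higher and 2426 lower. Counts of list members given below in these settings are to be read beside these counts over all features.

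**Figure D3:**
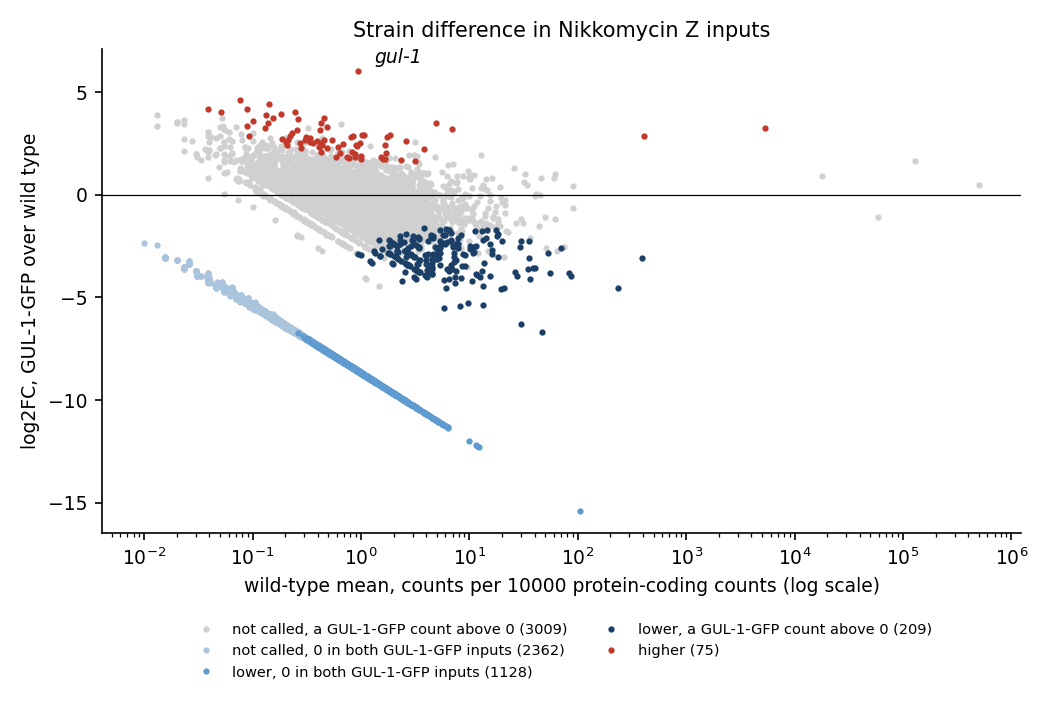
Log2FC of GUL-1-GFP over wild-type inputs with Nikkomycin Z against the wild-type mean level (counts per 10000 protein-coding counts, log scale), one point per feature with a wild-type count. The diagonal band of light blue points holds transcripts at 0 in both GUL-1-GFP inputs, 1128 of them called lower, and gul-1 lies above all other transcripts with a wild-type count that were called higher.

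Features with a count in each of the 5 inputs were also tested alone, a choice made after the data were seen. Among these 1689 features 33 were higher and 22 lower, and the median log2FC was 0.04. All of these 55 were also called in the same direction in the full test, which had called 61 higher and 93 lower among the 1689.

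The 88 higher transcripts comprised 84 protein-coding genes, 3 rRNA features and 1 mitochondrial pseudogene. The groups did not overlap for 77 of them, where 7.08% of all features had both GUL-1-GFP libraries above every wild-type library. 13 had 0 counts in all 3 wild-type inputs and 11 had 0 in one of the GUL-1-GFP inputs. In the shallow wild-type library 78 of the 88 had a level above every wild-type input with Nikkomycin Z, and 40 were at or above the lower GUL-1-GFP input. These libraries differ in drug treatment too, and no test was made between them.

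Glycolytic enzymes were the list with most higher transcripts. Of 17 glycolysis and fermentation genes 4 were higher (23.5%, beside 1.24% of all features) and none lower. Their median log2FC was 1.09, beside -3.20 over all features, where many fitted values rest on zeros. With groups at 0 set to their bound on the TMM scale, it was 1.09 for the list and at 0 over all features. Phosphoglycerate mutase (emp-6) had 415 and 462 counts in GUL-1-GFP against 112, 177 and 183 in the wild-type, or 98.9 and 103 against 3.36 to 7.16 per 10000 (log2FC 3.51 ± 0.99, adjusted p = 0.0175). Enolase (emp-7) had 86.1 and 148 per 10000 against 2.88, 4.55 and 13.4 (log2FC 3.22 ± 1.01, adjusted p = 0.0271). Glucose-6-phosphate isomerase (gpi-1) had 25.5 and 24.7 per 10000 against 1.14, 1.88 and 2.54 (log2FC 2.89 ± 0.67, adjusted p = 0.0067). Phosphoglycerate kinase (pgk) had 24.6 and 39.9 per 10000 against 2.85, 3.88 and 4.81 (log2FC 2.20 ± 0.79, adjusted p = 0.0469). Alcohol dehydrogenase adh-1 and glyceraldehyde-3-phosphate dehydrogenase gpd-1, chosen after their values were seen, had 136 to 155 and 70.6 to 107 per 10000 in GUL-1-GFP against 31.3 to 54.2 and 10.9 to 15.5 in the wild-type, without passing the test (adjusted p = 0.426 and 0.076). The list summed to 679 and 828 per 10000 in GUL-1-GFP, against 125, 154 and 181 in the wild-type, and to 519 in the shallow wild-type library. On the protein-coding scale 8 of the 17 were higher, beside 272 of 6459 features. With DESeq2 on all 22 libraries 3 were higher and 2 lower, beside 55 higher and 2426 lower of 8762 features.

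The 15 largest rises with a product name included 4 genes of amino acid synthesis and 3 of tRNA charging, groups that were formed after the values were seen and not tested as lists. Genes of these groups were not counted over all features, so no share can be set beside these numbers and no excess is claimed. aro-1 (NCU01632), which encodes the pentafunctional enzyme of aromatic amino acid synthesis, had 16 and 18 counts in GUL-1-GFP and 0 in all 3 wild-type inputs, at least 23.3-fold higher on the TMM scale and 42.4-fold per 10000 (adjusted p = 0.00994). trp-1 of tryptophan synthesis had 17 and 8 counts against 2, 7 and 5 (log2FC 3.50 ± 0.97, adjusted p = 0.016). In histidine synthesis, his-6 had 15 and 13 counts against 5, 5 and 0 (log2FC 4.19 ± 1.39) and a histidinol-phosphate aminotransferase (NCU06360) had 18 and 15 against 8, 7 and 0 (log2FC 3.86 ± 1.06). The shallow wild-type library had 6.14, 1.59, 4.36 and 4.36 per 10000 of aro-1, trp-1, his-6 and NCU06360, beside 1.78 to 4.29 over these genes in GUL-1-GFP and 0 to 0.24 in the wild-type with the drug.

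Among genes of tRNA charging, a glycyl-tRNA synthetase (NCU00405) had 28 and 11 counts in GUL-1-GFP against 0, 0 and 14 in the wild-type (log2FC 3.94 ± 1.25, adjusted p = 0.0293). A lysine-tRNA ligase (NCU04020) had 7 and 14 against 7, 4 and 0 (log2FC 3.61 ± 1.02), and a multisynthetase complex component (NCU06307) had 31 and 16 against 7, 1 and 5 (log2FC 4.44, adjusted p = 0.00588). The lysine-tRNA ligase was at 0 in every standard-medium input of both strains. Of NCU00405 the shallow wild-type library had 8.12 per 10000, beside 6.68 and 2.45 in GUL-1-GFP. Of NCU06307 it had 3.96, beside 7.39 and 3.57.

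nic-4 (NCU03347), named for a nicotinic acid requirement, had 7 and 10 counts in GUL-1-GFP and 0 in all wild-type inputs with the drug, at least 11.6-fold higher on the TMM scale and 21.1-fold per 10000 (adjusted p = 0.00121). In standard medium the pattern was turned round, with 0 and 0 counts in GUL-1-GFP and 11, 18 and 0 in the wild-type. The zinc finger protein gene zpr1 (NCU08507) had 8 and 4 counts against 0, 0 and 0 (at least 8.3-fold higher on the TMM scale and 15.2-fold per 10000, adjusted p = 0.0219). The remaining large rises were mrc1 (log2FC 4.02), a GFA domain protein (NCU06301, 4.02), a pair of N-acetyltransferase domain proteins (NCU07126, 3.70, and NCU08390, 3.51) and, among the smallest adjusted p-values, gcy-1 (2.81 ± 0.63, adjusted p = 0.00571). Their GUL-1-GFP counts lay between 7 and 53 and their wild-type counts between 0 and 18. At such counts each value rests on few fragments. Levels in the shallow wild-type library were above both GUL-1-GFP inputs for nic-4 (3.57 per 10000), zpr1 (2.77) and mrc1 (2.77). They were under both for NCU06301 (3.96) and NCU07126 (3.17), and between them for NCU08390 (5.55) and gcy-1 (3.37).

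**Figure D4:**
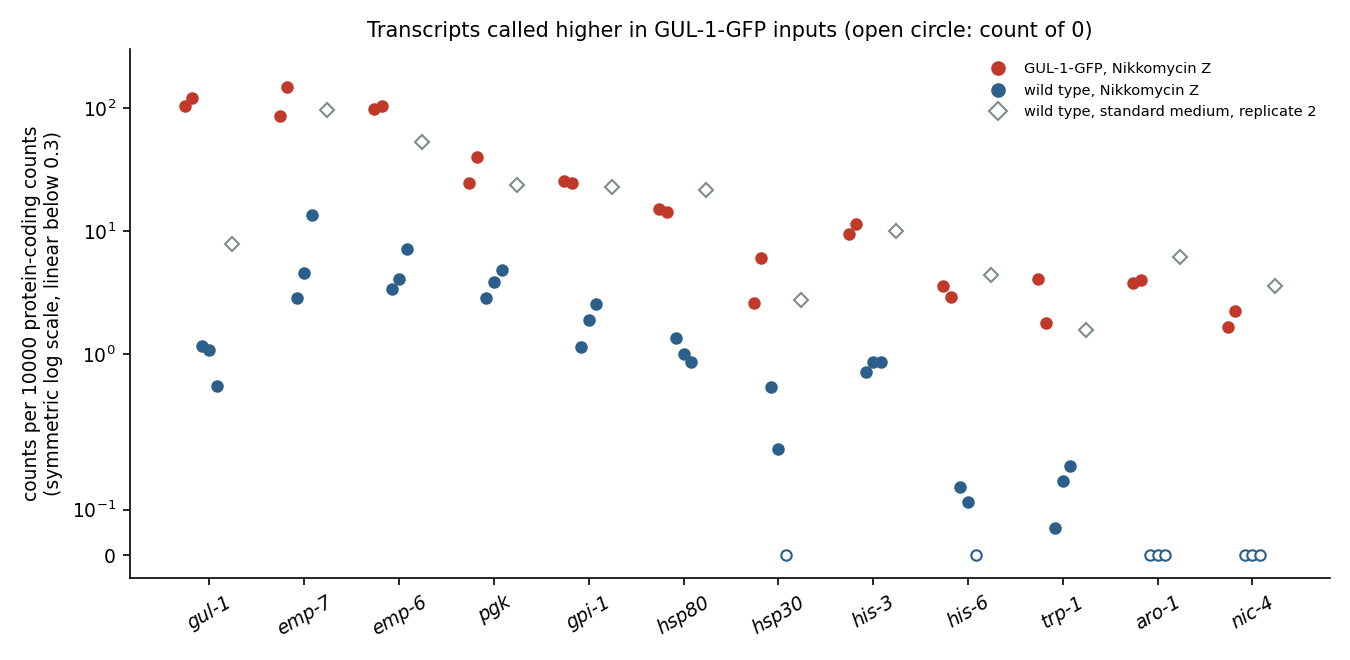
Counts per 10000 protein-coding counts (symmetric log scale) of 12 transcripts called higher, in the GUL-1-GFP inputs (red) and wild-type inputs (blue) with Nikkomycin Z and in the shallow wild-type input of the standard medium (grey diamonds). For all 12 transcripts the diamond lies above every wild-type point with the drug, and for gul-1 (7.93) it lies far under the GUL-1-GFP points.

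Stress transcripts did not move one way. Of 22 heat shock proteins and chaperones 2 were higher (9.09%, beside 1.24% of all features). A further 4 (18.2%) were lower, a share close to the 18.8% over all features. The Hsp90 family gene hsp80 had 63 and 64 counts in GUL-1-GFP against 45, 43 and 22, or 15.02 and 14.3 against 0.861 to 1.35 per 10000 (log2FC 2.90 ± 0.76, adjusted p = 0.0128), and hsp30 had 11 and 27 counts against 18, 10 and 0 (log2FC 3.15 ± 1.09, adjusted p = 0.0419). The shallow wild-type library had 21.4 and 2.77 per 10000 of these. Lower were grp78, the endoplasmic reticulum chaperone BiP (0 and 9 counts against 223, 271 and 198, log2FC -3.61 ± 0.89), another Hsp30 gene (NCU07232, 25 and 22 against 452, 759 and 403, log2FC -2.40 ± 0.66), hsp90a, an Hsp90-associated protein (0 and 4 against 50, 92 and 50), and a DnaJ chaperone (NCU00465, 0 and 0 against 25, 22 and 21). The list summed to 71.5 and 78.7 per 10000 against 46.2 to 46.9, and to 123 in the shallow wild-type library. Its median log2FC was -0.55 with TMM and 0.31 on the protein-coding scale, where 4 were higher and 1 lower, so its direction depended on the scaling.

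Of 24 antioxidant enzymes 1 was higher (4.17%, beside 1.24% of all features) and 4 (16.7%) lower, under the 18.8% over all features. On the protein-coding scale 1 was higher and 1 lower. The higher one, a peroxiredoxin (NCU06880), had 0 and 37 counts in GUL-1-GFP against 0, 10 and 0 in the wild-type, so a single library decided the call and the groups overlapped. Without GUL-1-GFP replicate 3 its log2FC was -5.28 (adjusted p = 0.565). Thioredoxin II (NCU06556), cytochrome c peroxidase (NCU03297), superoxide dismutase sod-1 and a mitochondrial peroxiredoxin (rhd) were at 0 in both GUL-1-GFP inputs, with 13 to 64 wild-type counts. Per 10000, thioredoxin II was at least 1.75-fold and NCU03297 at least 1.03-fold lower, while the wild-type means of sod-1 and rhd were under the GUL-1-GFP floor. On the protein-coding scale only thioredoxin II of these kept its call, the others having adjusted p-values of 0.0512 to 0.0757. Of 3 named stress response genes 1 was lower (NCU09182, 16 and 14 counts against 197, 320 and 124, log2FC -1.68 ± 0.57), or 3.81 and 3.12 against 5.91, 7.43 and 4.85 per 10000, and the call was lost on the protein-coding scale (adjusted p = 0.229). For NCU09182 the shallow wild-type library had 1.98 per 10000, under both GUL-1-GFP inputs. Of 11 clock-controlled genes only ccg-1 was lower.

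Secretory folding enzymes were lower throughout the list. All 5 of the genes tested were lower, beside 18.8% of all features, with a median log2FC of -2.82. The protein disulfide isomerase erp38 had 0 and 0 counts in GUL-1-GFP against 28, 62 and 56 (at least 2.15-fold lower), and a disulfide isomerase (NCU06344) had 0 and 0 against 65, 71 and 48 (at least 2.64-fold lower). A further isomerase (NCU09223) had 0 and 4 against 63, 65 and 50 (log2FC -2.82 ± 0.90), and the oxidoreductin gene NCU02074 had 34 and 17 against 343, 453 and 327 (log2FC -1.78 ± 0.60, adjusted p = 0.0378). Summed, the list had 8.82 and 6.02 per 10000 in GUL-1-GFP, against 17.4, 17.2 and 21.2, and 12.1 in the shallow wild-type library. On the protein-coding scale 2 of the 5 kept their call, beside 519 lower of 6459 features.

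Ribosomal protein and respiratory genes included many lower calls. Of 77 cytosolic ribosomal proteins 31 (40.3%) were lower and none higher, beside 18.8% lower over all features. Their median log2FC was -1.61, beside -3.20 over all features, where many fitted values rest on zeros. With groups at 0 set to their bound on the TMM scale, the median was -1.30 for the list and at 0 over all features. Of the 31, 17 were at 0 in both GUL-1-GFP inputs. The 40S protein S30 gene (NCU09089) had 0 and 0 counts against 410, 517 and 259, at least 16.6-fold lower (adjusted p = 0.000391), yet the shallow wild-type library held 63 counts of it and the untreated inputs of the tagged strain 29 and 80. The 60S protein genes NCU09109 and NCU03635 and the 40S S6 gene (NCU08502) were at 0 and 0 in GUL-1-GFP with 69 to 250 wild-type counts. The ribosomal list summed to 164 and 200 per 10000 in GUL-1-GFP, against 277, 257 and 247, and 233 in the shallow wild-type library. Of 49 respiratory chain and ATP synthase genes 19 were lower (38.8%) and none higher, with a median log2FC of -1.95, 17 of them at 0 in GUL-1-GFP. The complex I subunit genes nuo18.4, nuo11.6, nuo13.4 and nuo9.8 had 30 to 104 wild-type counts and were at least 2.05 to 3.76-fold lower. Their list summed to 89.6 and 53.3 per 10000 against 198, 150 and 183, and to 120 in the shallow library. On the protein-coding scale 18 ribosomal and 8 respiratory genes were lower and none higher, beside 519 lower and 272 higher of 6459 features.

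Other lists of housekeeping genes held a smaller number of calls, though not always a smaller share. Of 24 translation initiation factors 7 (29.2%, beside 18.8% of all features) were lower, all at 0 in GUL-1-GFP (among them NCU03876, NCU02810, NCU07831 and NCU03717, with 19 to 116 wild-type counts), and 1 was higher (NCU04344, 12 and 21 counts against 0, 20 and 16, log2FC 2.52 ± 0.88). On the protein-coding scale 3 of them were higher and 3 lower. Of 31 proteasome subunits 7 (22.6%) were lower, near the share over all features and also all at 0, such as pcb-3, rpn-5, pcb-4 and pcb-5 with 15 to 58 wild-type counts. Of 10 histone genes 2 were lower, the H2A.Z gene hH2Az and the H4 variant gene hH4v. The proteasome list had a median log2FC of -0.44 with TMM and 0.39 on the protein-coding scale, where 2 were higher and 3 lower, and the histone list had 1 higher and 1 lower there. Of 7 trehalose and glycogen genes 3 (42.9%, beside 18.8% of all features) were lower: a trehalose-6-phosphate synthase (NCU09715, 0 and 0 counts against 58, 62 and 28), glycogenin (gnn, 6 and 0 against 134, 138 and 57) and a trehalose-phosphatase (NCU05041, 4 and 3 against 68, 119 and 54). That list summed to 32.9 and 35.4 per 10000 in GUL-1-GFP, against 17.1 to 19.3 in the wild-type, and its median log2FC was -0.51 with TMM and 0.35 on the protein-coding scale.

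The genes of the cell wall were examined because GUL-1 and the drug both act on it. Of 36 cell wall synthesis and remodelling genes 8 (22.2%) were lower and none higher, near the 18.8% lower over all features, with a median log2FC of -1.24. On the protein-coding scale 2 were higher and 5 lower, beside 272 higher and 519 lower of 6459 features. With DESeq2 on all 22 libraries none were higher and 20 lower, beside 55 higher and 2426 lower of 8762 features. In these settings the list had a larger lower share than all features. The anchored cell wall protein genes acw-5, acw-10 and acw-11 were at 0 in both GUL-1-GFP inputs with 54 to 131 wild-type counts, at least 3.02 to 4.64-fold lower. acw-6, found through the rule for the largest falls, had 0 and 0 counts against 175, 197 and 151 (at least 7.58-fold lower, adjusted p = 0.0067). Even so the list summed to 324 and 372 per 10000 in GUL-1-GFP, against 251, 256 and 279 in the wild-type and 258 in the shallow library. The largest contributor, acw-3, was named after its values were seen; it had 89.9 and 88.5 per 10000 against 32.3, 27.2 and 36.8, and its log2FC of 0.61 ± 0.53 did not pass the test (adjusted p = 0.405).

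Of the 7 genes of the MAK-1 cascade 3 were lower and none higher, beside 18.8% lower over all features, and 2 were lower on the protein-coding scale. The kinase gene mak-1 had 0 and 0 counts in GUL-1-GFP against 70, 71 and 28 (at least 2.33-fold lower, adjusted p = 0.00461), and the shallow wild-type library had 24. The transcription factor gene pp-1 (NCU00430) had 0 and 0 against 30, 56 and 20 (at least 1.44-fold lower, adjusted p = 0.0127), and was at 0 in the shallow library. A further transcription factor gene, adv-1, had 24 and 29 counts against 558, 595 and 317, or 5.72 and 6.46 per 10000 against 16.7, 13.8 and 12.4 (log2FC -2.10 ± 0.72, adjusted p = 0.0389, and 0.159 on the protein-coding scale). The adv-1 call was also lost with total counts as library sizes (adjusted p = 0.0738) and among features with a count in each of the 5 inputs (0.103). Leaving out any 1 wild-type input lost it as well (0.053 to 0.0794). For adv-1 the shallow wild-type library had 4.36 per 10000, under both GUL-1-GFP inputs. The upstream kinase genes did not pass. mek-1 had 8 and 13 counts against 151, 156 and 59 (log2FC -1.40 ± 0.71, adjusted p = 0.152) and mik-1 had 20 and 8 against 26, 32 and 32 (log2FC 0.96 ± 0.74, adjusted p = 0.347). The GTPase gene rho-1 had 21 and 24 against 93, 134 and 97 (log2FC -0.19 ± 0.55, adjusted p = 0.844), and the 1,3-beta-glucan synthase gene do had 88 and 113 against 588, 601 and 393 (log2FC -0.31 ± 0.87, adjusted p = 0.837). For rho-1 and do the sign turned on the protein-coding scale (0.67 and 0.55).

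**Figure D5:**
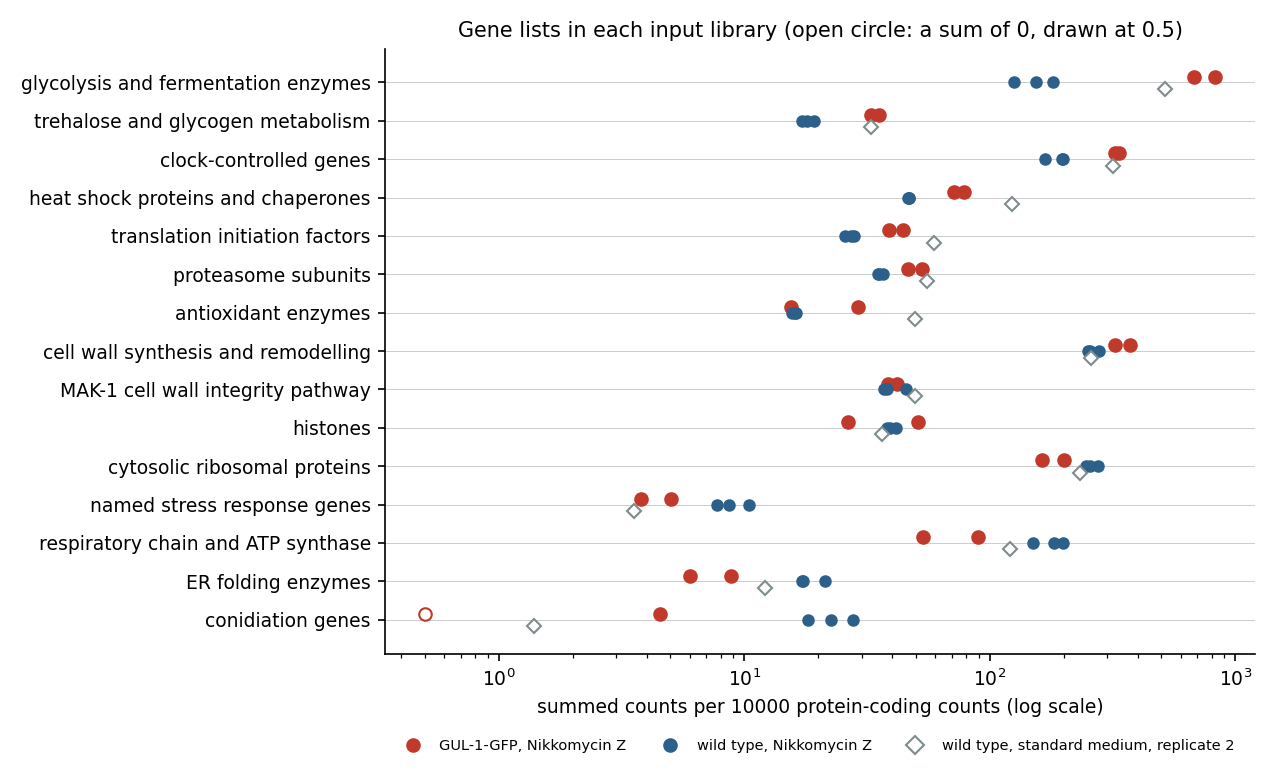
Summed counts per 10000 protein-coding counts (log scale) of 15 gene lists in the GUL-1-GFP inputs (red) and wild-type inputs (blue) with Nikkomycin Z, and in shallow wild-type replicate 2 of the standard medium (grey diamonds); lists are ordered by the ratio of the strain means. Glycolysis stands highest (679 and 828 against 125 to 181, diamond 519) and conidiation lowest (4.53 and 0 against 18.1 to 27.6, diamond 1.39), the diamond lying on the GUL-1-GFP side of the wild-type points in both.

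The largest falls with a product name that are not described above were at 0 in both GUL-1-GFP inputs. A tartrate transporter (NCU06305) had 413, 532 and 301 wild-type counts (at least 17.6-fold lower), glucoamylase (gla-1) had 134, 393 and 128 (at least 8.75-fold), a high-affinity glucose transporter (NCU04963) had 161, 311 and 95 (at least 7.60-fold), a benzoate monooxygenase (NCU06327) had 163, 225 and 163 (at least 7.95-fold) and a glycerophosphoryl diester phosphodiesterase (NCU10237) had 209, 233 and 97 (at least 7.46-fold). gla-1, NCU04963 and NCU10237 were at 0 in the shallow wild-type library as well. In contrast, glutamine synthetase (gln-1), the enzyme that fixes ammonium into glutamine, had 0 and 0 counts against 208, 186 and 114 (at least 7.24-fold lower, adjusted p = 0.000391) and 31 counts in the shallow wild-type library. The kinase genes camk-1 (at least 8.06-fold lower, adjusted p = 0.000439) and prk-4 (at least 3.91-fold) and the hypothetical protein gene NCU02932 (at least 7.01-fold) likewise kept 11, 15 and 16 counts there.

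In standard medium fewer differences were called. Of the 7114 features 6 (0.0843%) were higher and 144 (2.02%) lower in the GUL-1-GFP inputs than in the wild-type inputs, 2.11% in all. Of the 88 transcripts higher with the drug only gul-1 was also called higher in standard medium, and 63 of the 1337 lower ones were also called lower. The 88 had a median log2FC of -0.02 in standard medium and the 1337 one of -1.31. The test of the difference itself, the interaction of strain and treatment, called 37 features higher (0.52%) and 89 lower (1.25%), 1.77% in all, and gul-1 was not among them (1.93 ± 1.11 on the log2 scale, SE, adjusted p = 0.366). These counts changed much when single libraries were left out, and leaving out a GUL-1-GFP input left 1 library in its group. In standard medium the calls numbered 0 without GUL-1-GFP replicate 1 or 2, 58 without wild-type replicate 1 and 569 without wild-type replicate 2, beside 1381 features at an unadjusted p under 0.05. The interaction gave 32 and 34 calls without GUL-1-GFP replicate 2 or 3 with the drug, 71 and 80 without wild-type replicate 2 or 3 with the drug, and 66 and 441 without GUL-1-GFP replicate 1 or 2 of the standard medium. It gave 822 without wild-type replicate 1 of that medium and 82 without replicate 2. When only the inputs were fitted, edgeR called 0 interactions and DESeq2 23, beside 1330 at an unadjusted p under 0.05 in the model of all libraries.

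In the pull-downs with Nikkomycin Z, which are other libraries of the same strains, 506 features (7.11%) were higher and 378 (5.31%) lower in GUL-1-GFP than in the wild-type, 12.4% in all. gul-1 had 46184, 12020 and 40095 counts in the GUL-1-GFP pull-downs against 112, 33 and 93 in the wild-type pull-downs. Of the 88 transcripts higher in the input, 31 were higher and none lower in the pull-down, and of the 1337 lower ones 188 were lower and 51 higher. The medians of the log2FC in the pull-down were 1.77 for the 88 and -0.82 for the 1337, beside -0.13 over all features. Leaving out any one of the 6 pull-downs lowered the 884 calls to between 385 and 476.

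The number of calls fell when a library was left out. Without 1 of the 2 GUL-1-GFP inputs only 1 library remains in that group. Fewer calls then follow from the smaller group, so the fall cannot show that a particular library carried the result. Without GUL-1-GFP replicate 2, 14 features were higher and 140 lower, and without replicate 3, 4 were higher and 82 lower, the remaining library being assumed to vary like those of the other groups. Leaving out wild-type replicate 1, 2 or 3 gave 47, 39 and 55 higher calls and 1017, 1020 and 1112 lower calls. Of the 88 higher transcripts only gul-1 and nic-4 remained called when either GUL-1-GFP input was left out. Over all alternatives in which they could be tested, gul-1 and nic-4 kept their higher call, and NCU09089, NCU09109, camk-1, gln-1, NCU02932, prk-4, NCU03635, NCU08502 and acw-5 kept their lower call. gul-1 ranged in log2FC between 5.31 and 6.88, with an adjusted p of at most 0.00586.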

How the data were processed

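The authors deposited a table of estimated counts per annotated feature (10592 features, 22 libraries), in whole numbers without normalization. The submitters' processing notes name CASAVA 1.8.2, HISAT2 2.1.0 and StringTie 1.3.3b, whereas the study's methods describe alignment by Tophat and tallying by HTSeq of uniquely mapped reads; the genome build is not given in the sources used here. A count of 1 was rarer than one of 4 (22 and 14 against 292 and 339 features in the GUL-1-GFP inputs), so counts are not single molecules, and floors cover counting error only. Total counts were 12786879 and 6682673 in the GUL-1-GFP inputs and 22013253 to 28010852 in the wild-type inputs with Nikkomycin Z. Symbols and gene classes came from RefSeq (NC12), in which 10590 features were found, and product names from the study's tables of proteins and transcripts. Libraries were grouped by strain, fraction and agent labels; both GUL-1-GFP inputs of standard medium bear a pull-down title but a total RNA label, which was used.

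Features were filtered by filterByExpr (minimum count 10), normalized by TMM and fitted in one model of 8 groups and 22 libraries with edgeR 4.0.16 in R 4.3.3 (quasi-likelihood test, Benjamini-Hochberg adjustment over all features tested, threshold 0.05). All groups were fitted together so that they share one estimate of spread. DESeq2 1.42.0 and the settings given below were alternatives, and the procedure was tested on simulated data. Folds against a group at 0 in every library were computed against 3 counts per library, averaged over the group, per 10000 protein-coding counts and on the TMM scale, which can differ. Gene lists are described by counts and medians beside all features, without a set test.

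Named genes were the 3 genes of the construct; among called genes whose groups do not overlap, the 15 largest rises and 10 largest falls with a product name and the 5 smallest adjusted p-values in each direction; up to 4 called members of each list per direction; and all genes of the MAK-1 list. The members of the comparison and the lists were chosen with earlier results of these data known. Sequences and gene lengths were not used here.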

Additional observations from a re-analysis of the deposited data

Results flagged for a closer look

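For 13 of the named transcripts the strain difference in the inputs was itself different with Nikkomycin Z and in standard medium, by the test of the interaction in the edgeR quasi-likelihood model with adjustment over all features. The interaction (log2FC with the drug minus that in standard medium) was positive for nic-4 (17.53, adjusted p = 0.00197), NCU06880 (15.44, 0.00881), NCU00405 (13.72, 0.0338), NCU06360 (12.97, 0.023) and mrc1 (5.45, 0.044). In each of these transcripts except mrc1, both untreated GUL-1-GFP inputs were at 0, so the fitted size is no bound. It was negative for NCU09089 (-13.31, adjusted p = 0.00174), NCU06305 (-12.43, 0.0266), NCU06327 (-11.07, 0.027), NCU02932 (-10.60, 0.0111), NCU08502 (-10.39, 0.0152), NCU03876 (-10.22, 0.0287), gln-1 (-9.86, 0.0147) and prk-4 (-9.21, 0.0277). In all of these both GUL-1-GFP inputs with the drug were at 0, while at least one untreated GUL-1-GFP input was not. The standard medium had 2 GUL-1-GFP inputs and 3 wild-type inputs, of which wild-type replicate 3 held 59 protein-coding counts, and the part of library depth in these differences was not tested.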

How the results depend on the processing

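Under other settings the 1425 calls with Nikkomycin Z (88 higher, 1337 lower) became 2481 (55 and 2426) with DESeq2 on all 22 libraries. They became 791 (272 and 519) with protein-coding totals as library sizes and 55 (33 and 22) among features with a count in each of the 5 inputs. Higher calls numbered 171 with DESeq2 and 232 with edgeR on the 5 inputs alone, and 21 with total counts as library sizes. Leaving out 1 of the 5 inputs gave 86 to 1167 calls, 4 to 55 higher and 82 to 1112 lower, and leaving out wild-type replicate 3 of the standard medium, which held 59 protein-coding counts, gave 1269 (81 and 1188). This last setting, the protein-coding totals and the 5-input filter were chosen after seeing the data. The 150 calls in standard medium became 516 with DESeq2 on all libraries, 0 with DESeq2 or edgeR on its inputs alone, 3 with total counts and 0 to 569 without one library. The 126 interactions became 451 and 23 with DESeq2 on all libraries or the inputs alone, 0 with edgeR on the inputs alone, 247 with no filter on low counts, 15 with total counts and 32 to 822 without one library. The 884 pull-down calls became 2752 with DESeq2 and 2734 with edgeR on the 6 libraries alone, 484 with total counts and 385 to 476 without one library. Deviations of same-numbered inputs from their group means had correlations of 0.022 and -0.0015. The 2 GUL-1-GFP inputs deviate from their mean in exactly opposite ways, so this check cannot decide whether the numbers pair the samples. With the replicate block the calls were 1351 with Nikkomycin Z (69 higher, 1282 lower) and 48 in standard medium. That setting gave 150 for the interaction and 1146 in the pull-down. Signs turned for NCU06880 without GUL-1-GFP replicate 3 (-5.28, against up to 9.88 without another library), for do (0.55), rho-1 (0.67) and act (0.035) with protein-coding totals, and for acw-3 with DESeq2 on all libraries (-0.023). Of the 78 named transcripts that were called, 17 and 13 kept their call without GUL-1-GFP replicate 2 or 3, 60 with protein-coding totals and 61 with total counts; the cause was not tested. Losses in the GUL-1-GFP inputs are limited by their depth, since 3 counts there stand for 0.669 and 0.715 per 10000.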
